A study of Mus musculus with 6 samples.

Results

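Glycolysis, the handling of lactate and the entry of pyruvate into mitochondria were followed through 39 genes, which are 39 of the 54532 genes in the deposited count table. They were taken by name from a list that runs from glucose transporters to the pyruvate dehydrogenase complex, and where a name had several gene IDs, which happened for Aldoa, the ID with the most counts was used. Total RNA of retina was sequenced at postnatal day 17 from C57BL/6J mice, all labelled WT. A group of 3 samples came from OIR mice and a group of 3 from normal mice of the same strain, genotype and age. OIR usually stands for oxygen-induced retinopathy: newborn mice breathe high oxygen, which stops retinal vessels from growing, and back in room air the poorly supplied retina turns hypoxic and sprouts abnormal vessels. No label states the oxygen schedule, whether animals were pooled or whether each library came from a separate mouse, so p-values measure the spread between these samples, which may in part be technical. The stated purpose was to look for a gene tied to vessel growth under hypoxia.

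Cells split glucose to pyruvate in the glycolytic chain and either reduce pyruvate to lactate or oxidise it in mitochondria. Photoreceptors and Müller glia of the retina are known for turning much of their glucose into lactate even with oxygen present. Hypoxia-inducible factors are known to switch on many glycolytic genes, the lactate exporter Slc16a3 and the kinase Pdk1, which shuts the pyruvate dehydrogenase complex. Several steps have isoenzymes encoded by separate genes, which differ in tissue and in regulation.

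Library depth was 15818168 to 17163513 counts, and 17108 genes passed the filter on low counts. Rod markers summed to 39000 to 43700 CPM (counts scaled to a common library size with TMM factors) in OIR libraries and 48600 to 51700 CPM in normal libraries. One library stood apart: lens markers summed to 4340 CPM in OIR 3, against 60.2 CPM in OIR 1, 266 CPM in OIR 2 and 2.64 to 279 CPM in the normal libraries. By Xist and Y-linked counts, OIR 1 and OIR 3 and normal 2 were female libraries and the others male. Normal 1 had the highest of the 3 normal values in 26 of the 38 members tested, and the share over all genes was not counted. On the axis of largest variance over all genes tested, normal 2 was the one apart, at 28.4 against 40.7 in both normal 1 and normal 3.

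Of the 39 genes, 38 passed the filter on low counts, and only Pdk4 did not. By edgeR's quasi-likelihood test, called at an adjusted p under 0.05, 17 were higher and 6 lower in OIR retina. Over all genes tested, 11.1% were higher and 8.73% lower, 19.8% in either direction. With library totals in place of TMM scaling, 19 members were higher and 3 lower, so that 86.4% of the calls were higher, against 73.9% with TMM scaling. The median log2 fold change was 0.30 over the 38 members and 0.01 over all genes tested. All 39 genes together took 2.1% to 2.12% of the counts in OIR libraries and 1.53% to 1.72% in normal libraries. The groups did not overlap in 26 of the 38 members, where over all genes tested 36.8% did not overlap. The shifts were mostly small: 3 of the 17 higher members and none of the 6 lower ones changed at least 2-fold. Among the 17 that were higher, 11 stayed past the threshold in each of the 14 alternative fits run (Slc2a3, Gpi1, Pfkl, Pfkp, Pfkfb3, Tpi1, Pgk1, Ldha, Slc16a3, Bsg and Pdk1), as did 1 of the 6 lower ones, Slc16a8. Those fits were DESeq2, limma-voom, 2 other scalings, 2 other filters, a replicate block, sex as a factor and 6 fits without 1 library. Leaving out 1 library gave 11 to 18 higher and 1 to 5 lower members. Without OIR 3, the library with the most lens RNA but not the only one with it, 13 were higher and 3 lower. The lower count was 2 without OIR 1, 1 without OIR 2 and 2 without normal 3, while the higher count was 11 without normal 3.

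**Figure D1:**
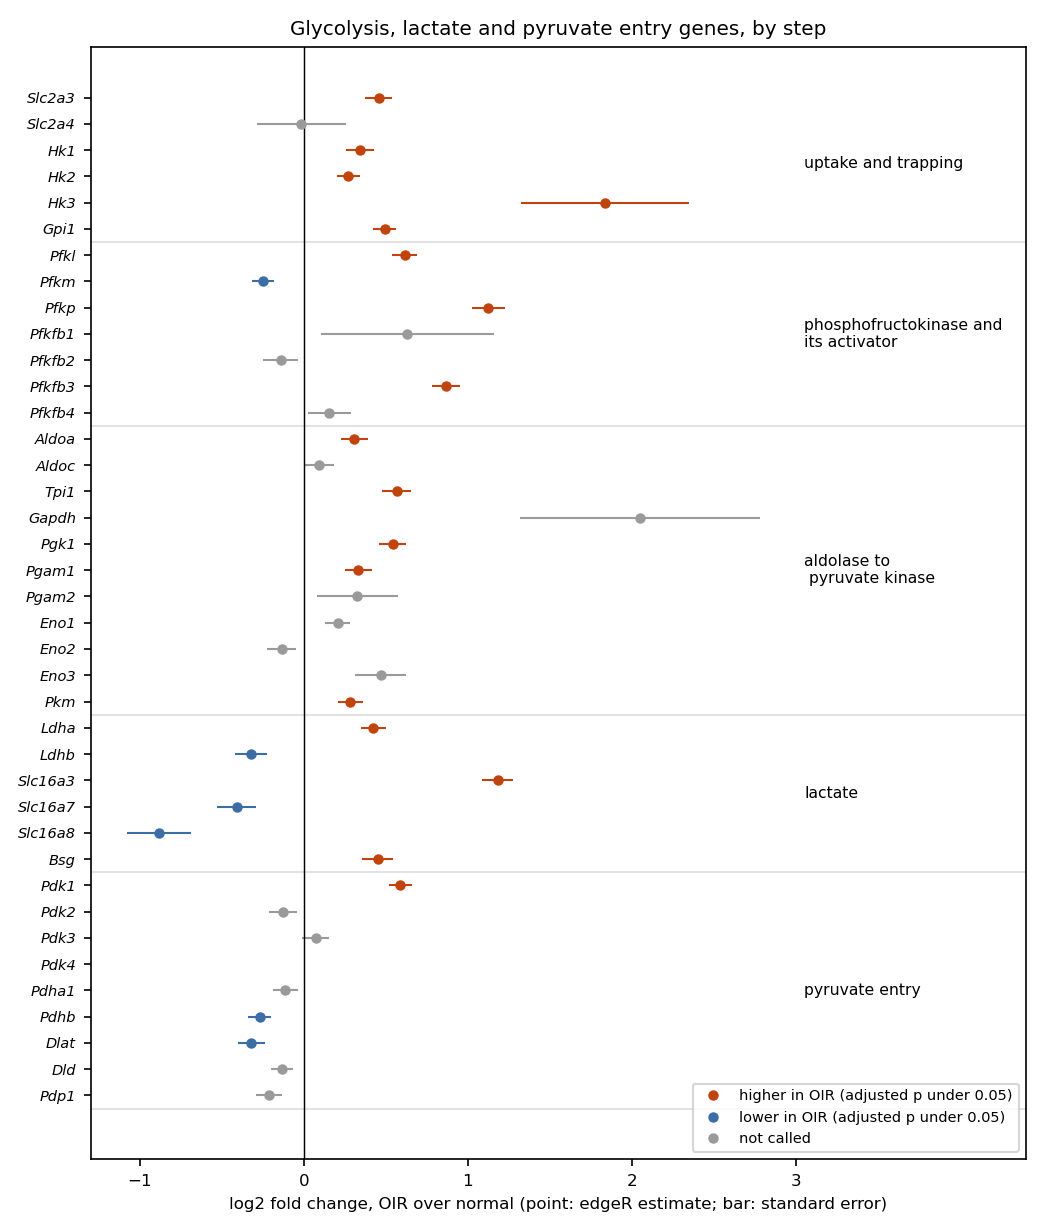
Log2 fold change of each gene in OIR over normal retina (horizontal axis, edgeR estimate with its standard error), ordered from glucose transport at the top to pyruvate entry at the bottom. Orange marks the 17 genes called higher, blue the 6 called lower and grey those not called; Pdk4 was not tested. In the first 3 blocks every call but that of Pfkm lies above 0, the lactate block holds 3 on each side, and the pyruvate entry block holds 1 above and 2 below 0.

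Promoters are shown for the 4 genes with the largest rises whose window holds the core of the hypoxia response element, to let the letters be read beside the changes. Windows run from 250 bases before to 50 after the RefSeq start site (GRCm38.p6), and capitals mark the core, ACGTG or GCGTG on the printed strand or CACGT or CACGC where it lies on the other.
Slc16a3, chr11:120948817-120949116, plus strand: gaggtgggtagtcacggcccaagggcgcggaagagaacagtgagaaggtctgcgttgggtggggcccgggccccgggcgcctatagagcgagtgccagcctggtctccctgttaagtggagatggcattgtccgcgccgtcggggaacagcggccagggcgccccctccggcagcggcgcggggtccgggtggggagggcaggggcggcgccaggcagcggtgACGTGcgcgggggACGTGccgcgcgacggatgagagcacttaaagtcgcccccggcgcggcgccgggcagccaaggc
Pfkp, chr13:6648722-6649021, minus strand: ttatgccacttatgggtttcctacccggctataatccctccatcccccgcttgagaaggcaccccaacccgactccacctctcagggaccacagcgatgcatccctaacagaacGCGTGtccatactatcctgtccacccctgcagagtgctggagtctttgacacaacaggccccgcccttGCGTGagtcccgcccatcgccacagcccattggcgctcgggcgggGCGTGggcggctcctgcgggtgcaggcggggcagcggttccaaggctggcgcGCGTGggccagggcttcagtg
Pfkfb3, chr2:11553880-11554179, minus strand: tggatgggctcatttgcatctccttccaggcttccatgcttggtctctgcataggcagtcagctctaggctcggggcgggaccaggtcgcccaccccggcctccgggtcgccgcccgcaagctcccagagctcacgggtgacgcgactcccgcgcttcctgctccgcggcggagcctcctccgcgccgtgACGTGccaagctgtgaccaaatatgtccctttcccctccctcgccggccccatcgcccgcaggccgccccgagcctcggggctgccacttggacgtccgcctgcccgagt
Hk3, chr13:55021336-55021635, minus strand: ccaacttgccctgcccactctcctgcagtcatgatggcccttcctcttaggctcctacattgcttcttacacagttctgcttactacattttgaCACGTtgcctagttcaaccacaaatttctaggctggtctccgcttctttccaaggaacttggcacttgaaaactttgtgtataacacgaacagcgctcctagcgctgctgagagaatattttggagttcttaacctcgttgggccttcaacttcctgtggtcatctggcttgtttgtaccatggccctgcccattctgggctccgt
Pfkfb3 has a second window in the table, not printed, with 3 cores; for each gene the window nearest the 5′ end of the gene in the count table is shown. Slc16a3 holds 2 cores, which begin 27 and 14 bases upstream of the start site, and the printed Pfkfb3 window holds 1, which begins 60 bases upstream. In Pfkp there are 4, beginning 136, 68 and 23 bases upstream and 29 bases downstream, and Hk3 has 1 at 156 bases upstream. A CACGTG, which holds the core on both strands and is also an E-box, was counted once. The core is common: it lies in 59.3% of the windows of genes tested here and in 43.8% of all 32851 windows. Of the 39 genes, 34 are in the promoter table, and 37 of their 53 windows, or 69.8%, hold it. By call, 16 of 22 windows of higher members hold it, 5 of 8 windows of lower members and 15 of 22 windows of members not called. A match is a description of letters and not a bound site.

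At the entry of glucose, 5 of 6 genes rose, beside 11.1% of all genes tested. Slc2a3 encodes GLUT3, a high-affinity glucose transporter of neurons. It had 154, 180.4 and 172 CPM in OIR libraries, against 128, 113 and 129 CPM in normal libraries, so that every OIR value lay above every normal one. The rise was 1.37-fold (log2 0.46, SE 0.08; edgeR adjusted p of 0.00301). Slc2a4, the insulin-responsive transporter GLUT4 of muscle and fat, was near the floor, with 2.55 ± 0.448 CPM in OIR and 2.58 ± 0.677 CPM in normal retina (SD, n = 3 each). Its log2 change of -0.02 (SE 0.27) did not pass.

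Hexokinases trap glucose as glucose 6-phosphate, and all 3 rose. Hk1, the widely expressed form, had 955, 1032 and 895 CPM in OIR libraries and 835, 720.3 and 716 CPM in normal libraries. Hk2, the inducible form that photoreceptors also use, had 201, 191 and 213 CPM in OIR libraries and 175, 156 and 170.0 CPM in normal libraries. Neither pair of groups overlapped, and the folds were small, 1.27 for Hk1 and 1.21 for Hk2 (edgeR adjusted p of 0.0168 and 0.0214). Hk1 no longer passed without OIR 1 (log2 0.34), OIR 2 (0.28) or normal 3 (0.30), and Hk2 no longer passed without OIR 1 (0.27), OIR 3 (0.22), normal 2 (0.22) or normal 3 (0.28), nor with sex as a factor (0.28). Their shares of hexokinase mRNA per length, counted as CPM per kb of gene length, hardly moved: Hk1 made up 76.6% ± 2.19 in OIR and 75.9% ± 1.19 in normal retina, with an exact permutation p of 0.7. Hk3, the hexokinase of white blood cells, was rare, with 45, 28 and 14 counts in OIR libraries and 11, 4 and 8 in normal libraries. Its rise was 3.58-fold (log2 1.84, SE 0.51; edgeR adjusted p of 0.0286), and it no longer passed without OIR 1 (1.37), OIR 2 (1.85), normal 2 (1.52) or normal 3 (1.90), nor by limma-voom (log2 1.74; adjusted p of 0.0523), and was not tested under the stricter filter. Of 8 microglia and macrophage markers, 4 were higher (Cx3cr1, C1qa, Itgam and Ptprc) and none lower, beside 11.1% and 8.73% of all genes tested. P2ry12, Tmem119, Csf1r and Aif1 were not called. The 8 markers summed to 64.7 to 91.1 CPM in OIR and 38.0 to 47.6 CPM in normal libraries. None was at 0, and their part in the Hk3 result was not tested. In bulk tissue, a change in the number of cells of a type and a change in RNA per cell cannot be told apart. Gpi1, the isomerase that turns glucose 6-phosphate into fructose 6-phosphate, had 969, 992 and 942 CPM in OIR libraries, against 729, 670.1 and 662 CPM in normal libraries, a 1.41-fold rise (log2 0.49, SE 0.07; edgeR adjusted p of 0.000696).

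At phosphofructokinase, the committed step of glycolysis, 2 isoenzymes rose and 1 fell. Pfkp, the platelet form (chromosome 13, 6579768 to 6648777, minus strand, mm10), had 1244, 1354 and 1078 CPM in OIR libraries, against 494, 604 and 587 CPM in normal libraries. The lowest OIR value was well above the highest normal one, and the gene rose 2.18-fold (log2 1.13, SE 0.10; edgeR adjusted p of 3.95e-05). Pfkl, the liver form, had 540.1, 549 and 504 CPM in OIR libraries and 373, 342 and 326 CPM in normal libraries, a 1.53-fold rise (edgeR adjusted p of 0.000253). Pfkm, the muscle form, went the other way, with 146, 153 and 148 CPM in OIR libraries and 190.0, 165 and 176 CPM in normal libraries. Its log2 change was -0.25 (SE 0.07; edgeR adjusted p of 0.0292), and the call was lost without any library but normal 2, at -0.19 without normal 1, -0.24 without OIR 1, -0.26 without OIR 3, -0.26 without normal 3 and -0.27 without OIR 2. It was also lost with library totals alone (-0.20), and with sex as a factor (-0.21).

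Summed over the 3 genes, phosphofructokinase reached 1931, 2055 and 1730 CPM in OIR libraries, against 1057, 1112 and 1088 CPM in normal libraries, a ratio of 1.76. Per length, Pfkp made up 42.3% ± 2.02 of the family in OIR and 28.6% ± 3.43 in normal retina (SD, n = 3 each), and Pfkm 20.7% ± 1.22 in OIR and 36.0% ± 2.06 in normal retina. The order of the 3 forms depended on the length used. The gene length of Pfkp, 13401 bases, is 3.23 times that of its longest protein-coding transcript, and with transcript lengths, chosen after seeing the data, Pfkp led in both groups, at 60.2% ± 1.92 in OIR and 46.7% ± 4.24 in normal retina, while Pfkm made up 10.6% ± 0.799 in OIR and 21.2% ± 1.85 in normal retina. The shift of the shares of Pfkp and Pfkm thus kept its direction with either length. In all, 28 such shares in 10 families were compared. Groups did not overlap for the Pfkp and Pfkm shares, and the exact two-sided permutation p of 0.1 is the smallest that 3 against 3 libraries allow. For Pfkl the share was 36.9% ± 0.920 in OIR and 35.4% ± 1.86 in normal retina, within the spread; its difference of 1.57 points turned to -4.06 without the division by length and to -2.96 with transcript lengths. Exons of Pfkp share 5.58% of their bases with Pitrm1 and those of Pfkm 10.7% with Senp1 and Gm26513, and those genes had 2750 and 3650 counts in all beside 89710 for Pfkp and 16210 for Pfkm.

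The PFKFB enzymes make and break down fructose 2,6-bisphosphate, the strongest activator of phosphofructokinase. Pfkfb3, the form with the highest kinase activity, had 85.8, 98.8 and 103 CPM in OIR libraries, against 50.8, 53.8 and 53.0 CPM in normal libraries. The groups lay far apart, and the rise was 1.83-fold (log2 0.87, SE 0.09; edgeR adjusted p of 6.51e-05). Pfkfb2, the most abundant of the family per length, had 248, 234 and 221 CPM in OIR libraries and 210, 291 and 273 CPM in normal libraries; it did not pass (log2 -0.14, SE 0.11), except without normal 1 (-0.27; edgeR adjusted p of 0.0179). Pfkfb4, often named beside Pfkfb3 as hypoxia-inducible, had 15.4, 19.9 and 15.6 CPM in OIR libraries and 15.6, 14.7 and 15.5 CPM in normal libraries, and did not pass (log2 0.16, SE 0.13). Pfkfb1, the liver and muscle form, had 14, 32 and 41 counts in OIR libraries and 34, 12 and 8 in normal libraries, with overlap (log2 0.63, SE 0.53). In the family, Pfkfb3 made up 26.0% ± 2.68 per length in OIR and 15.3% ± 1.6 in normal retina, and Pfkfb2 66.0% ± 3.40 in OIR and 77.2% ± 3.24 in normal retina, without overlap for either (exact permutation p of 0.1). The sum over the 4 genes differed by a ratio of 1.07 with overlapping groups (exact permutation p of 0.7), and of the 4 genes only Pfkfb3 was called.

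**Figure D2:**
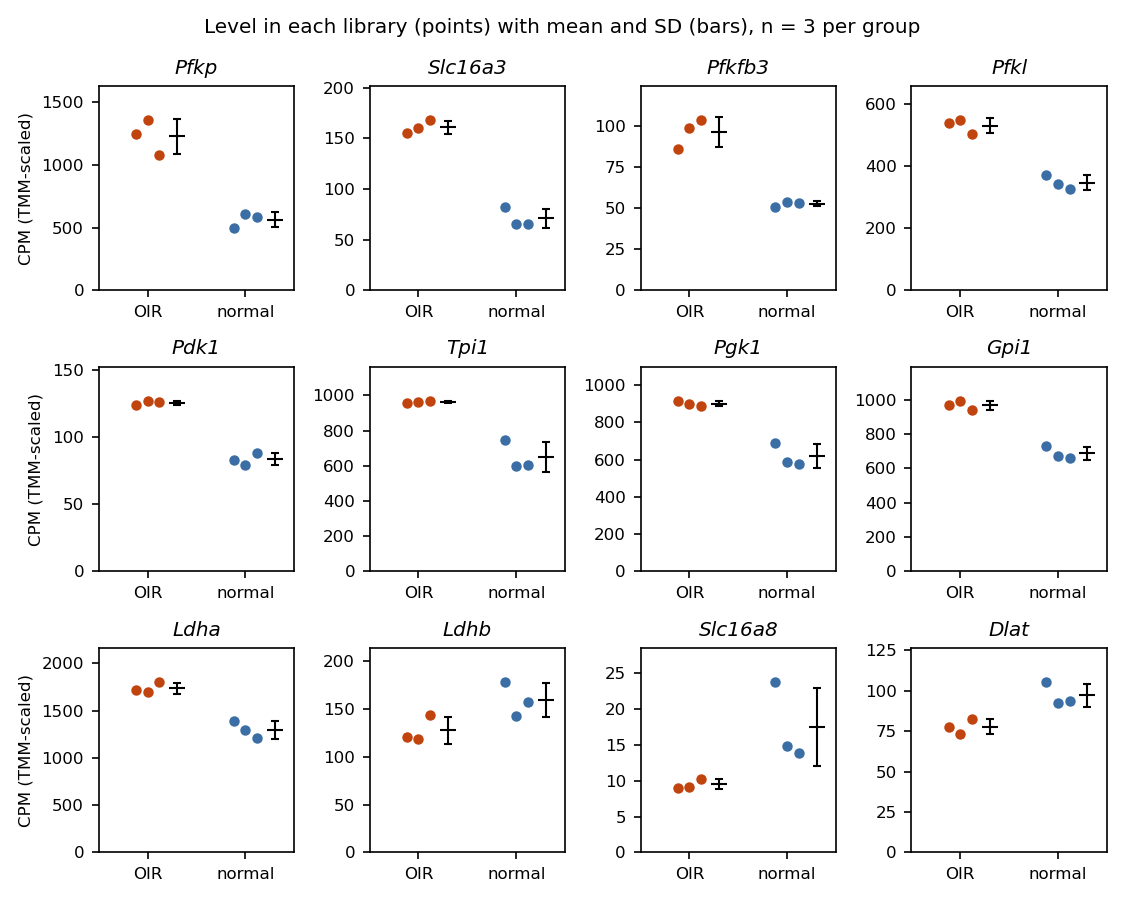
Level of 12 genes in each library (points; vertical axis in TMM-scaled CPM, starting at 0), with OIR libraries in orange, normal libraries in blue, and the mean and SD of each group in black (n = 3). Pfkp, Slc16a3 and Pfkfb3 show the widest gaps, the OIR points of Tpi1 (956 to 968 CPM) are closer together than the normal ones (599 to 748 CPM), and Ldhb overlaps.

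From aldolase to pyruvate kinase, 5 of 11 genes rose and none fell, beside 11.1% and 8.73% of all genes tested. The block holds the 3 most abundant members per length: in normal retina Aldoa had 708 CPM per kb of gene length, Eno1 527 and Pkm 472. The gene length of the table is 1.00 to 3.23 times the longest protein-coding transcript among the 39 genes, so the order of levels depends on the length, and with transcript lengths Eno1 (1397 CPM per kb) came before Aldoa (1331 CPM per kb). Tpi1, which interconverts the triose phosphates, had 956, 964 and 968 CPM in OIR libraries, against 748, 599 and 604 CPM in normal libraries. It rose 1.48-fold (log2 0.57, SE 0.09; edgeR adjusted p of 0.00152). Pgk1, the first step to make ATP, had 915, 899 and 886 CPM in OIR libraries, against 692, 586 and 577 CPM in normal libraries, and rose 1.46-fold (edgeR adjusted p of 0.00106). In both genes normal 1 was the highest normal library and still lay below every OIR library.

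Aldoa, which splits fructose 1,6-bisphosphate, averaged 2553 ± 56.5 CPM in OIR and 2062 ± 209 CPM in normal retina, 1.24-fold higher. Pgam1, the mutase of the lower chain, averaged 812 ± 13.6 CPM in OIR and 645 ± 68.8 CPM in normal retina, 1.26-fold higher. Pkm, pyruvate kinase, averaged 2871 ± 36.5 CPM in OIR and 2361 ± 182 CPM in normal retina, 1.22-fold higher (SD, n = 3 each). Their groups did not overlap and edgeR adjusted p lay between 0.0168 and 0.0246, yet each lost its call without OIR 1 (log2 0.32, 0.34 and 0.28 for Aldoa, Pgam1 and Pkm), OIR 2 (0.30, 0.31 and 0.26), OIR 3 (0.28, 0.33 and 0.28) or normal 3 (0.25, 0.29 and 0.24). Gene counts do not separate the M1 and M2 splice forms of Pkm. The alternative aldolase of neurons and glia, Aldoc, averaged 421 ± 26.5 CPM in OIR and 395 ± 42.9 CPM in normal retina and did not pass (log2 0.09, SE 0.09). Aldoa made up 87.2% ± 0.469 of aldolase mRNA per length in OIR and 85.4% ± 0.149 in normal retina, a small shift without overlap (exact permutation p of 0.1).

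Copies elsewhere in the genome could take reads from these genes: stretches of 95% identity or more covered 85.6% of the Eno1 transcript and 68.8% of that of Pgk1. The matching genes held counts equal to at most 13.0% of those of any member except Gapdh. Reads that fit several places may have been credited to no gene, so these counts do not show how many reads a member lost.

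No enolase passed in the edgeR test with all libraries. Eno1, the widespread form, had 3260, 3138 and 3401 CPM in OIR libraries and 3041, 2725 and 2730 CPM in normal libraries; the groups did not overlap, but the 1.15-fold difference had an edgeR adjusted p of 0.0825. It did pass in 5 alternatives: DESeq2 (adjusted p of 0.0419), limma-voom (adjusted p of 0.0417), and edgeR with library totals alone (adjusted p of 0.027), with no filter on low counts (adjusted p of 0.0156) and without normal 1 (log2 0.26; adjusted p of 0.0102). Eno2, the neuronal form, had 535, 543 and 594 CPM in OIR libraries and 682, 547 and 609 CPM in normal libraries, with overlap (log2 -0.14, SE 0.09). The muscle form Eno3 averaged 24.8 ± 1.32 CPM in OIR and 17.9 ± 4.32 CPM in normal retina (log2 0.47, SE 0.15; edgeR adjusted p of 0.0561), and passed in 6 alternatives, which were DESeq2, limma-voom, library totals alone, no filter on low counts, the replicate block and leaving out normal 2, with adjusted p of 0.00255 to 0.0497 and log2 changes of 0.46 to 0.68. Within the family, Eno2 made up 16.01% ± 0.461 per length in OIR and 19.5% ± 1.05 in normal retina, and Eno1 82.1% ± 0.413 in OIR and 78.9% ± 0.601 in normal retina, both without overlap (exact permutation p of 0.1). Pgam2, the muscle mutase, averaged 8.61 ± 3.34 CPM in OIR and 6.86 ± 0.995 CPM in normal retina and did not pass. Its log2 change of 0.33 turned to -0.05 without OIR 3. Skeletal muscle markers gave 6.84 to 8.73 CPM in OIR and 6.41 to 7.46 CPM in normal libraries, and 2 of the 5 were at 0 in a library.

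Gapdh, the dehydrogenase between the triose and phosphoglycerate steps and a common reference gene, was unlike its neighbours in the chain. It had 457, 455 and 4489 counts in OIR libraries and 392, 428 and 423 counts in normal libraries. The single high value was in OIR 3; on the CPM scale OIR 1 and OIR 2 had 26.9 and 26.8 CPM, inside the normal range of 23.5 to 27.2 CPM. The log2 change of 2.05 had a standard error of 0.73 and did not pass (edgeR adjusted p of 0.076), it was 0.06 without OIR 3, and it passed without OIR 1 (2.51; edgeR adjusted p of 0.033) or OIR 2 (2.50; edgeR adjusted p of 0.0348), and with all libraries when no filter on low counts was used (2.05; edgeR adjusted p of 2.15e-13). At 6.19 CPM per kb in normal retina, Gapdh ranked 33 among the 39 genes per length, far under Tpi1 with 236 and Pgk1 with 275 CPM per kb; with transcript lengths it ranked 25, at 18.01 CPM per kb, against 405 for Tpi1 and 339 for Pgk1. Reads of this gene are hard to place: 88.0% of the Gapdh transcript matched other annotated transcripts at 95% identity or more, from 81 genes of which 77 are pseudogenes. Those 81 genes together had 1747, 1503 and 1699 counts in OIR libraries and 1330, 916 and 1172 counts in normal libraries, with OIR 3 inside the range of its group. Lens markers were the highest in OIR 3 as well, and their part in its Gapdh count was not tested.

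**Figure D3:**
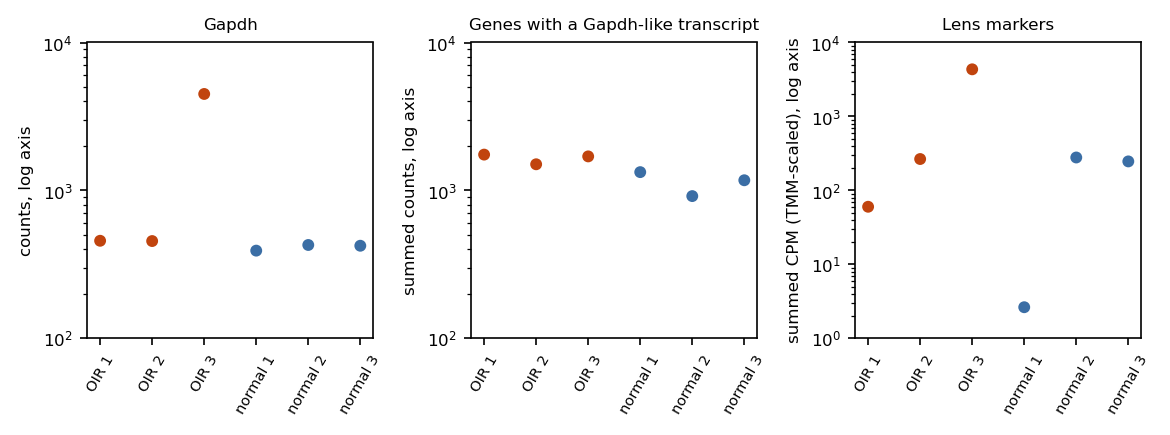
Counts of Gapdh (left), summed counts of the 81 genes with a Gapdh-like transcript (middle) and summed CPM of 6 lens markers (right) in each library, on log axes, with OIR libraries in orange and normal libraries in blue. OIR 3 has 4489 Gapdh counts, with 457 or fewer in every other library, and the highest lens sum; in the middle plot it lies within its group.

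At lactate, genes of one step moved in opposite directions: 3 of 6 rose and 3 fell, beside 11.1% and 8.73% of all genes tested. Ldha, the lactate dehydrogenase subunit that favours making lactate, had 1718, 1695 and 1803 CPM in OIR libraries, against 1390, 1293 and 1206 CPM in normal libraries. It rose 1.34-fold (log2 0.42, SE 0.08; edgeR adjusted p of 0.00291). Ldhb, the subunit that favours the return to pyruvate, had 120.3, 119 and 143 CPM in OIR libraries and 178, 143 and 158 CPM in normal libraries. OIR 3 lay just above normal 2, so the groups overlapped, and the log2 change of -0.32 (SE 0.10; edgeR adjusted p of 0.0425) was lost without OIR 1 (-0.28), OIR 2 (-0.28), normal 1 (-0.24) or normal 3 (-0.33). It was also lost with library totals alone (-0.28) and with sex as a factor (-0.31). As a share of lactate dehydrogenase mRNA per length, Ldha took 87.1%, 87.1% and 85.6% in OIR libraries and 78.7%, 81.1% and 78.4% in normal libraries, without overlap (exact permutation p of 0.1). The difference was 7.21 points per gene length, 5.36 points with transcript lengths and 4.13 points without the division by length.

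Monocarboxylate carriers move lactate across membranes. Slc16a3, which encodes MCT4, the exporter of glycolytic cells (chromosome 11, 120948480 to 120960868, plus strand, mm10), had 155, 160 and 168 CPM in OIR libraries, against 82.2, 65.3 and 65.5 CPM in normal libraries. It had the lowest adjusted p of the 39 genes, with a 2.27-fold rise (log2 1.18, SE 0.10; edgeR adjusted p of 1.72e-05). Slc16a7, which encodes MCT2, a high-affinity importer of neurons, had 18.7, 18.6 and 16.3 CPM in OIR libraries and 20.9, 24.4 and 26.0 CPM in normal libraries. The log2 change of -0.41 (SE 0.12; edgeR adjusted p of 0.0346) was lost without OIR 1 (-0.45), OIR 2 (-0.45), OIR 3 (-0.36), normal 2 (-0.39) or normal 3 (-0.34), with library totals alone (-0.37) and with sex as a factor (-0.40).

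Slc16a8, which encodes MCT3, the carrier of the retinal pigment epithelium, had 9.02, 9.14 and 10.3 CPM in OIR libraries, against 23.7, 14.8 and 13.9 CPM in normal libraries. It was the largest fall among the 38 genes tested (log2 -0.88, SE 0.20; edgeR adjusted p of 0.00973). Of 6 pigment epithelium markers, 5 were lower and none higher, beside 8.73% and 11.1% of all genes tested. They summed to 112, 116 and 104 CPM in OIR libraries and 326, 195 and 241 CPM in normal libraries. None of the 6 was at 0, normal 1 was highest in both measures, and their part in the Slc16a8 result was not tested. Without normal 1 the log2 change of Slc16a8 was -0.60. Slc16a3 made up 84.2% ± 0.148 of these 3 carriers per length in OIR and 58.2% ± 2.02 in normal retina, and Slc16a8 11.6% ± 0.421 in OIR and 32.8% ± 4.30 in normal retina. These shares leave out Slc16a1 (MCT1), which is not a listed member and had a higher CPM than Slc16a3 in both groups. Slc16a1 averaged 239 ± 27.6 CPM in OIR and 328 ± 5.93 CPM in normal retina, and Slc16a3 161 ± 6.4 and 71.0 ± 9.7 CPM. Basigin, encoded by Bsg, is the chaperone that brings MCT4 and MCT3 to the membrane. Bsg had 971, 1016 and 1058 CPM in OIR libraries against 838, 745 and 645 CPM in normal libraries. Bsg rose 1.37-fold (log2 0.45, SE 0.09; edgeR adjusted p of 0.00707).

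**Figure D4:**
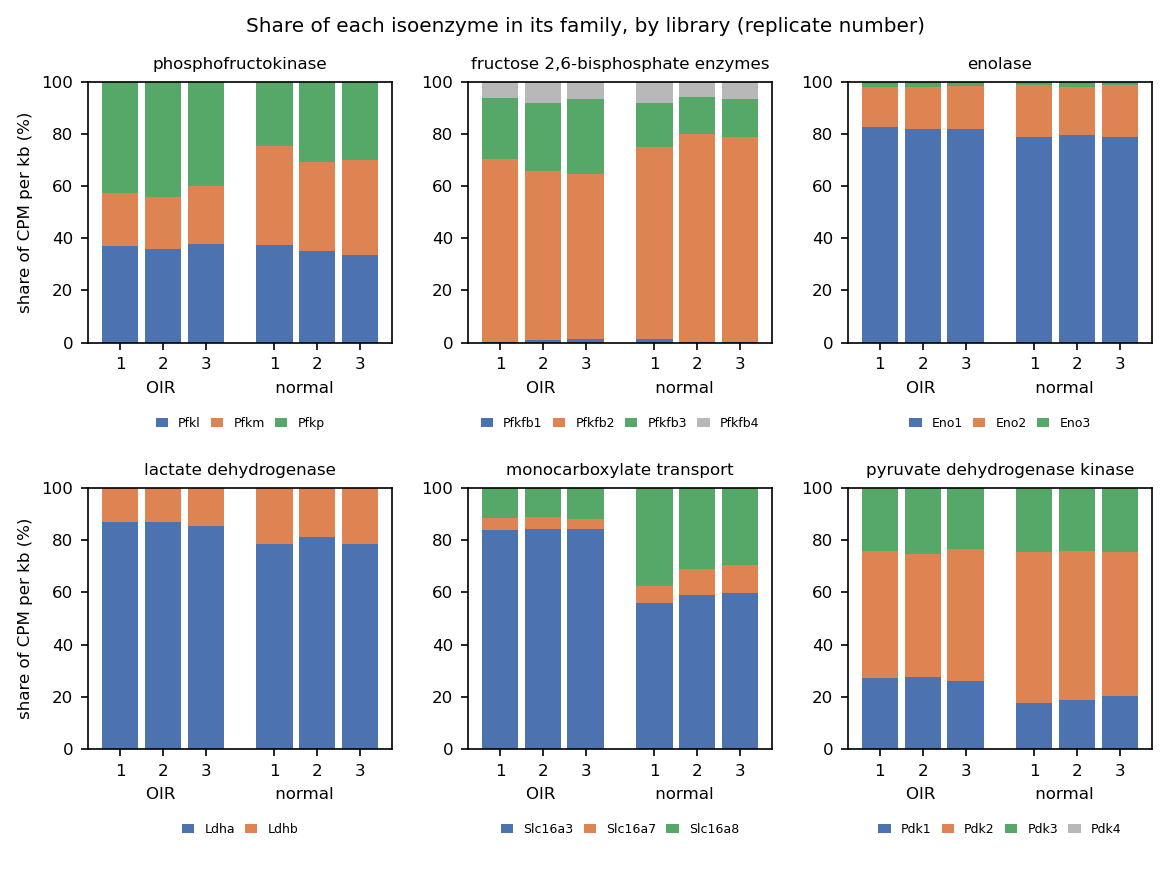
Share of each isoenzyme in the CPM per kb of its family (vertical axis, percent) in each library, with OIR libraries left and normal libraries right and replicate numbers below the bars. Families hold listed members only, so the carriers leave out Slc16a1. In OIR libraries Pfkp, Pfkfb3, Ldha, Slc16a3 and Pdk1 take larger shares than in any normal library, and Pfkm, Pfkfb2, Ldhb, Slc16a8 and Pdk2 smaller ones.

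At the entry of pyruvate into mitochondria, 1 of 8 tested genes rose and 2 fell, beside 11.1% and 8.73% of all genes tested. Pdk1, a kinase that turns off pyruvate dehydrogenase, had 124, 127 and 126 CPM in OIR libraries, against 83.2, 79.1 and 88.1 CPM in normal libraries. The rise was 1.5-fold (log2 0.59, SE 0.07; edgeR adjusted p of 0.00022). Its relatives Pdk2 (92.6 ± 6.24 CPM in OIR and 101 ± 8.56 CPM in normal retina) and Pdk3 (36.9 ± 1.26 CPM in OIR and 35.0 ± 2.43 CPM in normal retina) did not pass. Pdk4, the form induced by fasting, had 14, 6 and 7 counts in OIR libraries and 15, 8 and 2 in normal libraries and was not tested. Pdk1 thus made up 26.9% ± 0.766 of the kinases per length in OIR and 19.0% ± 1.46 in normal retina, and Pdk2 48.8% ± 1.87 in OIR and 56.5% ± 1.41 in normal retina, without overlap (exact permutation p of 0.1).

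The pyruvate dehydrogenase complex itself had log2 changes below 0 in all 4 of its genes, of which 2 passed. The share of all genes below 0 was not counted. Dlat, the acetyltransferase core, had 77.4, 73.2 and 82.7 CPM in OIR libraries, against 105, 92.5 and 93.3 CPM in normal libraries (log2 -0.32, SE 0.08; edgeR adjusted p of 0.0194), and no longer passed without OIR 1 (-0.32) or OIR 2 (-0.29). Pdhb, the beta subunit of the decarboxylase, had 126, 118 and 119 CPM in OIR libraries, against 151, 136 and 151 CPM in normal libraries (log2 -0.27, SE 0.07; edgeR adjusted p of 0.0217). That call was lost without OIR 2 (-0.26), OIR 3 (-0.27) or normal 3 (-0.24), and with sex as a factor (-0.25). Pdha1, the alpha subunit that the kinases phosphorylate, and Dld, the shared dehydrogenase, had log2 changes of -0.11 (SE 0.08) and -0.14 (SE 0.07) and did not pass. Pdp1, the phosphatase that turns the complex back on, averaged 35.0 ± 2.08 CPM in OIR and 40.5 ± 1.88 CPM in normal retina, without overlap, and did not pass either (log2 -0.21, SE 0.08; edgeR adjusted p of 0.0963).

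Neighbouring genes of the same metabolism were read from 4 further lists of 55 genes. Of these, 49 were tested, 7 were higher and 11 lower, with a median log2 change of -0.10. Among all genes tested, 11.1% were higher and 8.73% lower. The glucose transporter Slc2a1 (GLUT1), which serves the blood-retina barrier and photoreceptors, averaged 473 ± 29.4 CPM in OIR and 302 ± 13.1 CPM in normal retina, a 1.56-fold rise (edgeR adjusted p of 0.000142). Slc16a1 (MCT1), the carrier of endothelium and photoreceptors, fell to 239 ± 27.6 CPM in OIR retina, against 328 ± 5.93 CPM in normal retina (log2 -0.45; edgeR adjusted p of 0.00317). Carriers of this family thus differed in direction, with Slc16a3 higher and Slc16a1 and Slc16a8 lower, as they were in all 14 alternative fits. Of 7 glycogen genes, 2 were higher and 2 lower. The glycogen synthase gene Gys1 rose 2.13-fold (edgeR adjusted p of 2.01e-05), and the glycogen phosphorylase gene Pygb fell (log2 -0.51; edgeR adjusted p of 0.0065). Hkdc1, a hexokinase-like gene, rose 1.78-fold. Further calls were higher for Gpd1, Pgls and Gbe1 and lower for Emb, Mdh1, Got1, Got2, Tkt, Pygm and Suclg1.

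The citrate cycle list had 12 genes tested, of which 3 were lower and none higher, beside 8.73% and 11.1% of all genes tested. All 12 log2 changes were below 0, from -0.42 to -0.004 (Sdhb), and the share of all genes below 0 was not counted. Ogdh, the oxoglutarate dehydrogenase gene, averaged 240 ± 9.44 CPM in OIR and 321 ± 25.9 CPM in normal retina (log2 -0.42; edgeR adjusted p of 0.00265). Idh3a, a subunit of isocitrate dehydrogenase, averaged 117 ± 5.33 CPM in OIR and 155 ± 7.05 CPM in normal retina (log2 -0.40; edgeR adjusted p of 0.00234). Of the pentose phosphate genes, which branch off after hexokinase, 1 of 7 was higher and 1 lower, beside 11.1% and 8.73% of all genes tested. Gys1, Hkdc1, Slc2a1, Slc16a1, Pygb, Ogdh and Idh3a stayed past the threshold in each of the 14 alternative fits, as none of the other 11 calls in these lists did.

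Cell markers moved in the same libraries, in which 11.1% of all genes tested were higher and 8.73% lower. Of the neuronal lists, 5 of 8 rod, 5 of 6 bipolar, 3 of 4 amacrine, 2 of 4 horizontal and 1 of 7 cone markers were lower and none higher, while none of 6 ganglion cell markers was called by edgeR, and 5 of 8 Müller glia markers were lower with 1 higher. Endothelial markers were higher in 6 of 8 cases and summed to 590 to 665 CPM in OIR and 389 to 448 CPM in normal libraries. Mural markers were higher in 6 of 6 and erythroid genes in 4 of 5. Of 4 astrocyte markers, 2 were higher (Gfap and Pdgfra) and none lower, while Pax2 and S100b were not called. The 4 markers summed to 277 to 355 CPM in OIR and 56.8 to 67.1 CPM in normal libraries. Most of the OIR sum was Gfap, at 273, 299 and 213 CPM in OIR libraries and 21.4, 24.4 and 20.6 CPM in normal libraries. The part of these cell types in the changes of the glycolytic genes was not tested.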

How the data were processed

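Raw gene counts, which the authors deposited in 1 table for 6 libraries, were used as given. Per the submitters' processing notes, reads went through HISAT2 2.0.5 and featureCounts 1.5.0-p3 on mm10, after CASAVA 1.8 and fastp, with DESeq2 1.20.0 also named; no source used here gives the strand setting, so reads of overlapping genes cannot be told apart. Gene IDs of the table matched GENCODE in 99.9% of cases.

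Genes were kept by filterByExpr (minimum count 10), which left out genes holding 0.164% of the counts. OIR was compared with normal retina in edgeR 4.0.16 (R 4.3.3), with TMM factors, the quasi-likelihood test and Benjamini-Hochberg adjustment over 17108 genes, called at 0.05. CPM use the TMM factors. Isoenzyme shares divided CPM by the gene length of the table and were compared by exact two-sided permutation over libraries. Similar transcripts were sought with BLAST 2.17.0 (at least 95% identity over 100 bases). The fits were tested on simulated data. Every listed member is named; of the other pathway genes, all are counted and those past the threshold named, except for an item not reported here. The members and lists were chosen with earlier results of these data known. Alternatives were DESeq2 1.42.0, limma-voom (limma 3.58.1), other scaling and filters, a replicate block, sex as a factor, a threshold of 0.01 and leaving out each library. Promoters come from RefSeq (GRCm38.p6), which the table holds for 34 members; Pdp1, Slc16a7, Slc2a4, Slc2a3 and Bsg are without one here.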

Additional observations from a re-analysis of the deposited data

How the results depend on the processing

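All 23 called members kept their sign in the 14 alternative fits, except that Hk3 was not tested under the stricter filter and so had 13. Leaving out 1 library gave 11 to 18 members higher and 1 to 5 lower, 3 to 6 other pathway genes higher and 4 to 11 lower, and 1237 to 2097 of all genes higher and 761 to 1734 lower; the median log2 change of the members ranged from 0.20 (without OIR 3) to 0.36. At an adjusted p under 0.01, edgeR called 11 members higher and 1 lower, 3 other pathway genes higher and 5 lower, and 1116 of all genes higher and 647 lower. With library totals alone, 3 members and 7 other pathway genes were lower; with sex as a factor, 2 members and 6 other pathway genes were lower. Leaving out normal 1 or normal 2 gave more calls for some of these counts. A stricter threshold leaves fewer calls by construction; otherwise the cause was not tested. The log2 change of Slc2a4 turned to 0.026 with library totals alone and ranged from -0.174 to 0.212 without 1 library, and that of Pgam2 ranged from -0.049 (without OIR 3) to 0.492. Without division by length, the difference of the Pfkl share turned to -4.06 points and 9 other shares moved by more than their spread; with transcript lengths, an alternative added after seeing the data, it turned to -2.96 points and 7 others moved.

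Replicate numbers of the titles showed no sign of pairing: deviations from the group means of same-numbered libraries correlated at 0.06, -0.16 and 0.07. Those of differently numbered libraries correlated at -0.18 to 0.10. With 3 libraries per group, these values cannot settle whether samples were paired. With the replicate block, 16 members were higher and 4 lower, with the calls of Aldoa, Pfkm, Pkm and Slc16a7 lost and Eno3 gained, 6 other pathway genes were lower, and 1680 of all genes were higher and 1166 lower. Depth limits Hk3, Pfkfb1 and Pdk4, which had under 50 counts in each library.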
